A study of Mus musculus with 6 samples.

Results

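The genes of the cartilage collagens, Col2a1, Col9a1, Col9a2, Col9a3, Col10a1, Col11a1, Col11a2 and Col27a1, were taken by gene name from the gene counts of bulk RNA sequencing of mouse growth plate cartilage. All 8 genes were found among 46078 genes listed, and all 8 were among the 16813 genes tested after a filter on low counts. Growth plates of the distal femur and proximal tibia were dissected at E18.5 (late embryonic, by the age label, although the growth text of the labels speaks of 2 months) for 3 control libraries of genotype Idh1 LSL/+ and 3 Idh1 mutant libraries of genotype Col2a1-Cre; Idh1 LSL/+. Both genotypes carry the lox-stop-lox (LSL) allele, which holds a mutant Idh1 behind a stop cassette. In the mutants a Cre recombinase driven by regulatory elements of Col2a1 removes that cassette in cells that use them, so the genotypes differ in carrying that transgene too. Whether transcripts of the transgene add reads to Col2a1 itself cannot be told apart from these counts.

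Collagens II, XI and XXVII form fibrils, collagen IX sits on the surface of the II/XI fibrils, and collagen X forms a network around hypertrophic chondrocytes, the swollen cells at the lower end of the growth plate. Each collagen molecule is a triple helix of 3 chains. Collagen II is made of identical chains from Col2a1, the main structural protein of cartilage. Collagen XI joins the products of Col11a1 and Col11a2 with a chain that is also encoded by Col2a1, and it sets the width of the fibril. Collagen IX is built from 1 chain each of Col9a1, Col9a2 and Col9a3. On GRCm38 the fibril former genes lie as follows, with Col2a1 at chr15:97975602-98004695 on the minus strand, and Col11a1 at chr3:114030540-114220718, Col11a2 at chr17:34039437-34066685 and Col27a1 at chr4:63214004-63334991 on the plus strand. The collagen IX genes are on 3 chromosomes, with Col9a1 at chr1:24177610-24252684, Col9a2 at chr4:121039385-121055322 and Col9a3 at chr2:180597790-180622189, and Col10a1 at chr10:34389981-34397085 is the shortest gene, all on the plus strand. SOX9, with SOX5 and SOX6, drives most of these genes in chondrocytes, and RUNX2 drives Col10a1.

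The 6 libraries held 23445687 to 30415773 counted reads, and the 8 genes together took 0.551% to 1.15% of them. Idh1 had 1049 to 1809 counts in control libraries against 1123 to 1635 in mutant libraries, and gene counts do not tell the mutant transcript from the normal one. The third mutant library stood apart from the rest, with 26356 counts of Xist and 512 counts of Y-linked genes, against 0 to 13 and 4193 to 5829 in the other 5. The tissue label was checked against marker genes. Of 12 cartilage markers 10 matched a listed gene and all 10 passed the filter, but Col1a1, the collagen of bone, tendon and skin, exceeded Col2a1 in every library, at a Col2a1 to Col1a1 ratio of reads per kb of 0.044 to 0.151. In bulk tissue, fewer chondrocytes and less collagen RNA per chondrocyte cannot be told apart.

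Promoter sequences are shown for 4 of the genes as a description, and no result below uses them. The sequences are from RefSeq on GRCm38.p6, in which 6 of the 8 genes had an entry, and each runs 250 bases up to the base before an annotated transcript start. Capitals mark TATAAA (the TATA box), ACAAAG or ACAATG (cores bound by SOX proteins) and GGGCGG (the GC box), each searched on both strands. Of all 32851 promoter windows of this length, 12.4% held the TATA box, 25.2% a SOX core and 32.7% the GC box. Col9a1 has a pair of starts 17593 bases apart, and the second lies within the gene. The gene counts add up transcripts from both.
Col9a1, first start, chr1:24177360-24177609, plus strand: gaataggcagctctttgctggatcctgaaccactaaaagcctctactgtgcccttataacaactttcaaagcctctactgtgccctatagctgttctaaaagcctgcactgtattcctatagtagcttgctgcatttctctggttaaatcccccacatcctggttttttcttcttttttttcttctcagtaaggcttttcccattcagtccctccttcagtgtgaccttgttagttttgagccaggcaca
Col9a1, second start, chr1:24194953-24195202, plus strand: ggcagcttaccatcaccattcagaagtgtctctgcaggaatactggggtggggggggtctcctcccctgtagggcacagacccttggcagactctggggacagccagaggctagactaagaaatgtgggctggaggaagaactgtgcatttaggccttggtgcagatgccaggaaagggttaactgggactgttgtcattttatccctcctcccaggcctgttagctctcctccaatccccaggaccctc
Col11a1, chr3:114030290-114030539, plus strand: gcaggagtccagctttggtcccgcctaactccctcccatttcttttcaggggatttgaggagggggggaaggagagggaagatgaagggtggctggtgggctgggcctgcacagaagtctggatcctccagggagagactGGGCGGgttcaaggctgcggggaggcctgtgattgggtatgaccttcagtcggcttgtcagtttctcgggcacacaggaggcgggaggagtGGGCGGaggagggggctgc
Col11a2, chr17:34038888-34039137, plus strand: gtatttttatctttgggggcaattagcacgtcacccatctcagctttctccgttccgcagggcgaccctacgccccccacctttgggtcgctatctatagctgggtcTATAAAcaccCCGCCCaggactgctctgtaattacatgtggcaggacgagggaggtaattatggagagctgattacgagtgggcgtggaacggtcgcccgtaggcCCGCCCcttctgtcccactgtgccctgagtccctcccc
Col10a1, chr10:34389731-34389980, plus strand: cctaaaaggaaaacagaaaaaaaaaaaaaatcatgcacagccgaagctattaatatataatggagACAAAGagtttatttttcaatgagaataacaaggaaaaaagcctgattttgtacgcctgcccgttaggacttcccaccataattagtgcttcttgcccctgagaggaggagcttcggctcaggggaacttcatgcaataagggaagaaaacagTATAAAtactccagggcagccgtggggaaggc
Neither Col9a1 window held any of the 3 motifs. The Col11a1 window held 2 GC boxes, the nearer 19 bases before the start, and the Col11a2 window held 2 GC boxes and a TATA box that lay 143 bases before the start. Col10a1 was the only one of these windows with a SOX core, 185 bases before the start, and its TATA box lay 32 bases before the start. The GC content was 41.6% for Col10a1 and 62.4% for Col11a1, against a median of 52.4% for all windows. Of the entries not shown, the Col9a2 window held 2 GC boxes at a GC content of 60.4%, and the Col27a1 window held 1 at 59.6%. Col2a1 and Col9a3 had no entry.

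The first question was how much of each collagen RNA the growth plates held. Levels of different genes were compared as reads per kb of gene length after scaling to the counted reads of each library, averaged over the 6 libraries. Col2a1 was the highest at 621, followed by Col9a2 at 188, Col11a2 at 158, Col11a1 at 155, Col9a3 at 122, Col9a1 at 95.3, Col10a1 at 42.6 and Col27a1 at 37.6. Col2a1 lay above Col9a2, Col9a3 above Col9a1, and Col9a1 above Col10a1 in all 6 libraries. The other neighbours changed places between libraries. Col9a2 exceeded Col11a2 in 5 of 6, Col11a2 exceeded Col11a1 in 3 of 6, Col11a1 exceeded Col9a3 in 5 of 6, and Col10a1 exceeded Col27a1 in 4 of 6.

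The second question was whether mutant Idh1 changed these levels. Within a gene, levels are given as CPM, counts scaled to the size of the library and adjusted by edgeR's TMM factors, and differences as log2 mutant over control ± standard error from edgeR's quasi-likelihood test. Of all genes tested, 32 passed an adjusted p of 0.05, which is 0.190% of them (0.0535% higher and 0.137% lower in the mutants). None of the 8 collagen genes passed, and none had an unadjusted p under 0.05, where 8.64% of all genes did. The groups overlapped for each of the 8 genes, whereas they were apart for 14.4% of all genes. The median log2 difference was -0.00 for the 8 genes and -0.003 for all genes.

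Among the fibril formers, Col2a1 had 3240, 4280 and 1923 CPM in control libraries against 5245.5, 3659 and 3972 CPM in mutant libraries. The third control was the lowest library and the first mutant the highest, and the second control lay above 2 mutants. The log2 difference was 0.45 ± 0.26 (95% interval -0.13 to 1.03, n = 3 per genotype, edgeR adjusted p = 0.699). Col11a2, the second chain of collagen XI, had 1056, 1231 and 603 CPM in control libraries against 1464.5, 1079 and 1025.5 CPM in mutant libraries. Its order of libraries was much like that of Col2a1, with the third control lowest and the first mutant highest, at a log2 difference of 0.30 ± 0.24 (edgeR adjusted p = 0.799).

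Col11a1, the first chain of collagen XI, had 2031, 2334 and 1749 CPM in control libraries against 2073, 1837 and 1813 CPM in mutant libraries. It varied least of the 8, and its log2 difference of -0.10 ± 0.13 had a 95% interval of -0.39 to 0.20 (edgeR adjusted p = 0.904). Col27a1 encodes the chain of collagen XXVII, a thin-fibril collagen of developing cartilage. It had 462, 565 and 394 CPM in control libraries against 608, 430 and 476 CPM in mutant libraries, with a log2 difference of 0.09 ± 0.16 (edgeR adjusted p = 0.932).

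The 3 chains of collagen IX were spread more widely among the controls. Col9a1 had 518, 816 and 326 CPM in control libraries against 532, 305 and 396 CPM in mutant libraries. The second control was far above the others, and 1 mutant lay above 2 of the controls. The log2 difference was -0.43 ± 0.30 (95% interval -1.09 to 0.24, edgeR adjusted p = 0.764). Col9a2 had 576, 892 and 397 CPM in control libraries against 717, 401 and 512 CPM in mutant libraries (-0.19 ± 0.28, edgeR adjusted p = 0.910). Col9a3 had 497, 713 and 278 CPM in control libraries against 589, 344 and 401 CPM in mutant libraries (-0.16 ± 0.30, edgeR adjusted p = 0.937). All 3 chains had the same library at the top, the second control.

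Col10a1, the marker of hypertrophic chondrocytes, had 178, 130 and 49.6 CPM in control libraries against 179, 120 and 141 CPM in mutant libraries. It had the widest spread of the 8 genes, from the third control at the bottom to the first control and first mutant at the top. The log2 difference was 0.30 ± 0.36 (95% interval -0.50 to 1.10, edgeR adjusted p = 0.885). The third control was the lowest library for 7 of the 8 genes. Without it the log2 difference of Col10a1 was -0.07 and that of Col2a1 was 0.19, and without the second control that of Col9a1 was -0.03.

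**Figure D1:**
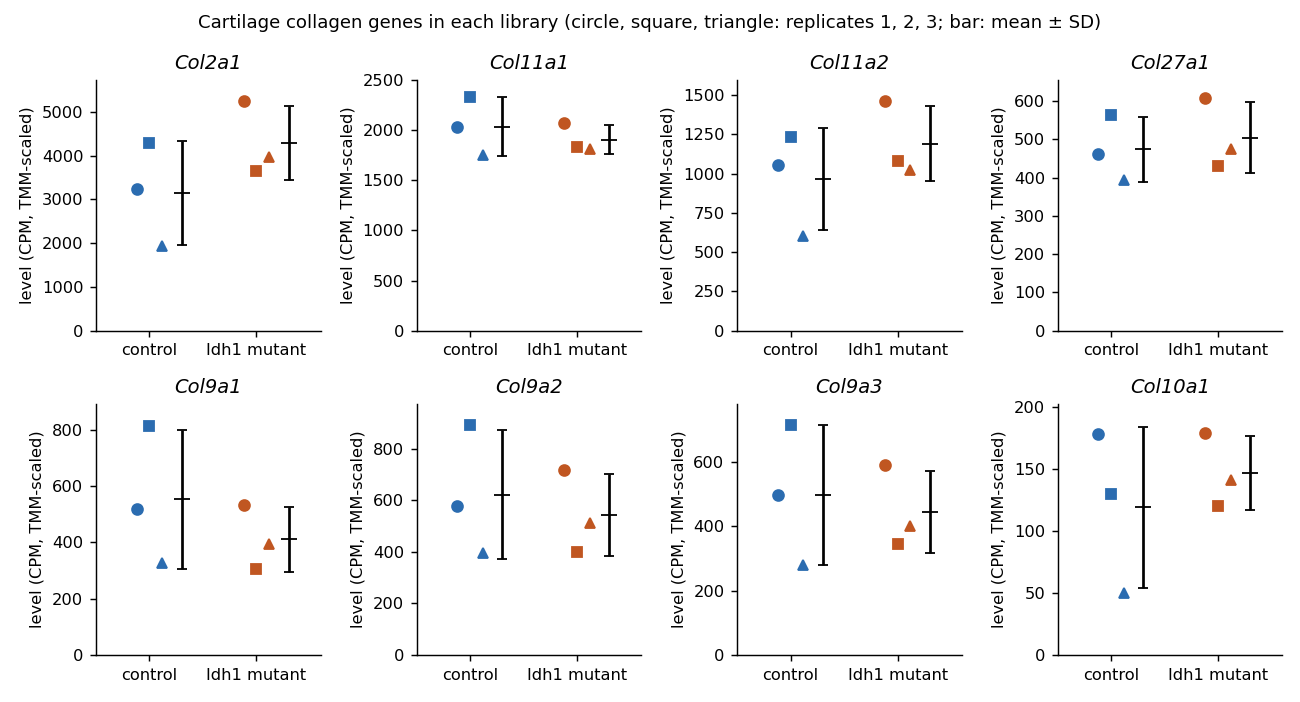
Levels of the 8 cartilage collagen genes in each library, in TMM-scaled CPM on axes that start at 0, with controls in blue, Idh1 mutants in orange, and the bars giving the mean ± SD of 3 libraries. The groups overlap in every panel, and the third control (triangle) is the lowest library for all genes but Col9a1.

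The third question was the balance between the collagens, taken as the ratio of reads per kb of 2 genes within a library, which does not depend on how libraries are scaled. In the mutants each chain of collagen IX was low relative to Col2a1. Col9a1 stood at 0.189, 0.226 and 0.201 of Col2a1 in control libraries against at 0.120, 0.0987 and 0.118 in mutant libraries, a mean of 0.205 ± 0.0186 against 0.112 ± 0.0118 (SD, n = 3). The mutant ratio was 0.547 of the control ratio, a log2 difference of -0.87 against a within-group SD of 0.144, and every mutant lay below every control. The exact two-sided permutation test gave p = 0.1, the smallest that 3 against 3 libraries allow, and 0.171 after adjustment over the 12 ratios planned.

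Col9a2 to Col2a1 was 0.345, 0.404 and 0.400 in control libraries against 0.265, 0.212 and 0.250 in mutant libraries, a log2 difference of -0.66. Col9a3 to Col2a1 was 0.239, 0.260 and 0.225 in control libraries against 0.175, 0.146 and 0.157 in mutant libraries, a log2 difference of -0.60. Both ratios were lower in every mutant, with gaps between the groups wider than the SD within either group. With 1 library left out the differences ranged from -0.93 to -0.78 for Col9a1, from -0.74 to -0.57 for Col9a2 and from -0.67 to -0.54 for Col9a3. Without the third mutant, the library with Xist counts, they were -0.91, -0.69 and -0.59.

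Col11a1 to Col2a1 was 0.296, 0.257 and 0.429 in control libraries against 0.186, 0.237 and 0.215 in mutant libraries, a log2 difference of -0.59, and -0.38 without the third control. Col27a1 to Col2a1 was 0.0658, 0.0608 and 0.0945 in control libraries against 0.0534, 0.0541 and 0.0552 in mutant libraries, a log2 difference of -0.41, and -0.22 without the third control. Both were lower in every mutant, and both depended on the third control for their size. By contrast, Col11a2 to Col2a1 was 0.286, 0.253 and 0.275 in control libraries against 0.245, 0.259 and 0.227 in mutant libraries, overlapping at a log2 difference of -0.16 ± 0.077 (standard error, exact permutation p = 0.2). Col10a1 to Col2a1 also overlapped, at 0.105, 0.0582 and 0.0494 against 0.0653, 0.0629 and 0.0679 (-0.04 ± 0.333, exact permutation p = 1).

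**Figure D2:**
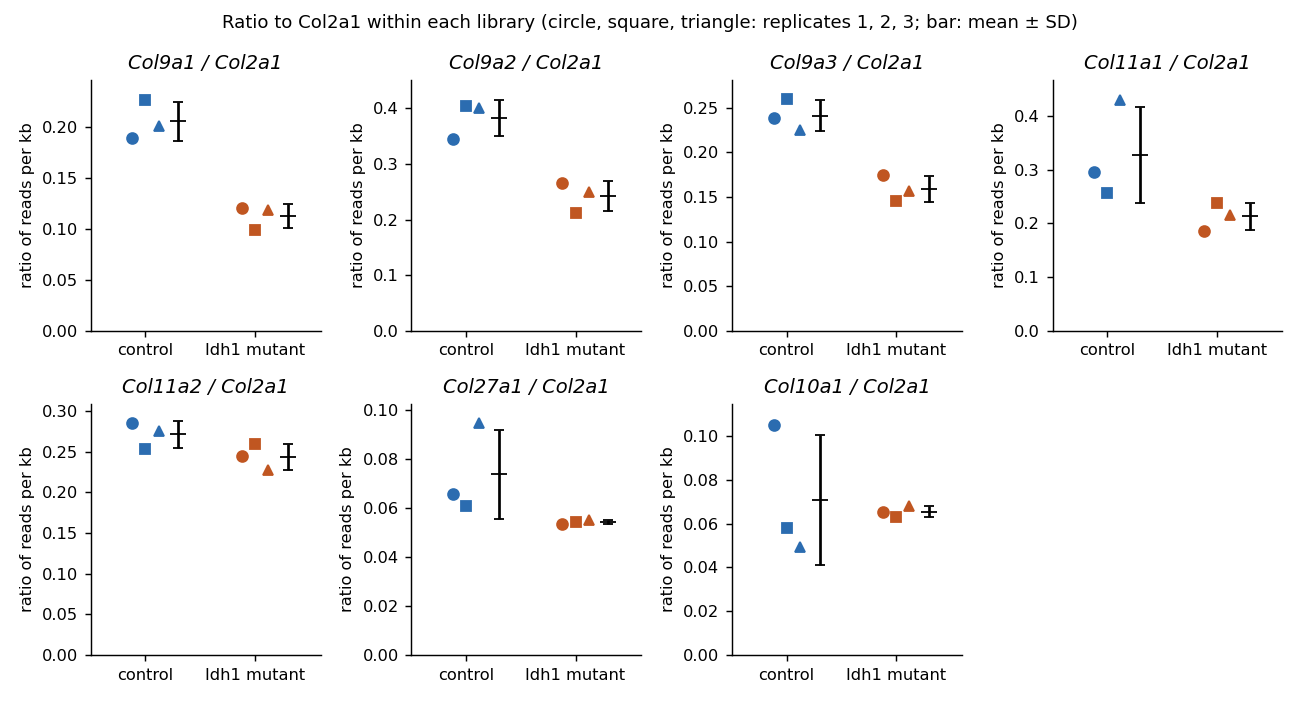
Ratio of each collagen gene to Col2a1 within a library, in reads per kb on axes that start at 0, with controls in blue, Idh1 mutants in orange, and bars giving the mean ± SD of 3 libraries. The 3 collagen IX panels show a clear gap between the groups, while Col11a2 and Col10a1 overlap.

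Thus 5 of the 7 ratios to Col2a1 were lower in every mutant, where 13.2% of all genes were lower without overlap and 0.149% higher. The log2 difference of the ratio to Col2a1 for the median gene was -0.505. Measured from that median, which cancels Col2a1 out, Col9a1 lay at -0.37, Col9a2 at -0.16, and Col9a3 and Col11a1 at -0.09. Col27a1 lay at 0.09, Col11a2 at 0.35 and Col10a1 at 0.47. A difference as low as that of Col9a1 was found in 6.72% of genes, as low as that of Col9a2 in 19.2% and as low as that of Col9a3 in 28.3%. These offsets and percents are the same over any denominator. They place each gene's own level difference among all genes and say nothing of its balance with Col2a1. The collagen IX ratios had within-group SDs of 0.144, 0.148 and 0.116 on the log2 scale against a median of 0.489 over all genes. That median carries the spread of Col2a1 itself, and it was 0.193 for ratios to Acan. Tightness was not particular to collagen IX, as Col11a2 to Col2a1 had an SD of 0.094.

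With edgeR scaled to the Col2a1 counts, a setting added after the values were seen, Col9a1 had a log2 difference of -0.87 ± 0.46 (adjusted p = 0.414) and none of the 7 genes passed, where 0.214% of all genes did. This scaling puts the spread of Col2a1 into every gene. The common dispersion, edgeR's estimate of spread between libraries, was 0.122 against 0.0173 in the main fit. Not passing in this setting therefore says little of a ratio. The ratios were also taken relative to other cartilage genes, likewise after the values were seen. Relative to Col11a2 the 3 chains of collagen IX were lower in every mutant, at -0.72, -0.51 and -0.44, where 7.82% of all genes were lower and 0.262% higher without overlap. Relative to Acan, which encodes aggrecan, the main proteoglycan of cartilage, they overlapped, at -0.56, -0.35 and -0.29, where 23.1% of all genes were lower and 1.13% higher without overlap. Col11a1 was lower in every mutant over both denominators, at -0.44 relative to Col11a2 and -0.28 relative to Acan. Acan itself had 731, 777 and 711 CPM in control libraries against 886, 763 and 895 CPM in mutant libraries, so it varied much less between controls than the collagens did.

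Summed markers of some other tissues differed by genotype as well, though not every gene in a list did. The summed CPM of 6 tendon and ligament markers was 3208 to 3441 for control libraries against 2110 to 2472 for mutant libraries. The 6 blood markers summed to 545 to 1583 CPM and 288 to 427 CPM, and the 4 skin markers tested to 9.34 to 17.5 CPM and 7.58 to 7.76 CPM. The skin gap rested on Krt5, at 2.95, 7.90 and 5.53 CPM in control libraries against 0.339, 0 and 0.379 CPM in mutant libraries. One tendon gene (Tnmd) and 1 skin gene (Krt5) were lower at adjusted p under 0.05 in edgeR. At an unadjusted p under 0.05, 5 of the 6 tendon markers, 5 of the 6 blood markers and 1 of the 4 skin markers were lower. Of the 6 libraries, the third control had the lowest summed CPM of the 10 cartilage markers, at 1265. It had the highest sums of the bone and skeletal muscle markers, at 74837 and 21582 CPM. The part of these markers in the collagen ratios was not tested.

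The share of each gene in the summed reads per kb of all 8 restates this balance from the same counts. A larger share of Col2a1 leaves less for the others, so the shares are no separate evidence. Col2a1 made up 39.6%, 39.7% and 37.4% in control libraries against 47.4%, 48.3% and 47.8% in mutant libraries. Col9a1 made up 7.50%, 8.96% and 7.50% in control libraries against 5.69%, 4.77% and 5.64% in mutant libraries. Col9a2 went from a mean of 14.9 ± 1.20% to 11.6 ± 1.20% and Col9a3 from 9.40 ± 0.943% to 7.62 ± 0.613% (SD, n = 3), again without overlap (exact permutation p = 0.1 for each). The shares of Col11a1, Col11a2, Col27a1 and Col10a1 overlapped between the groups.

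**Figure D3:**
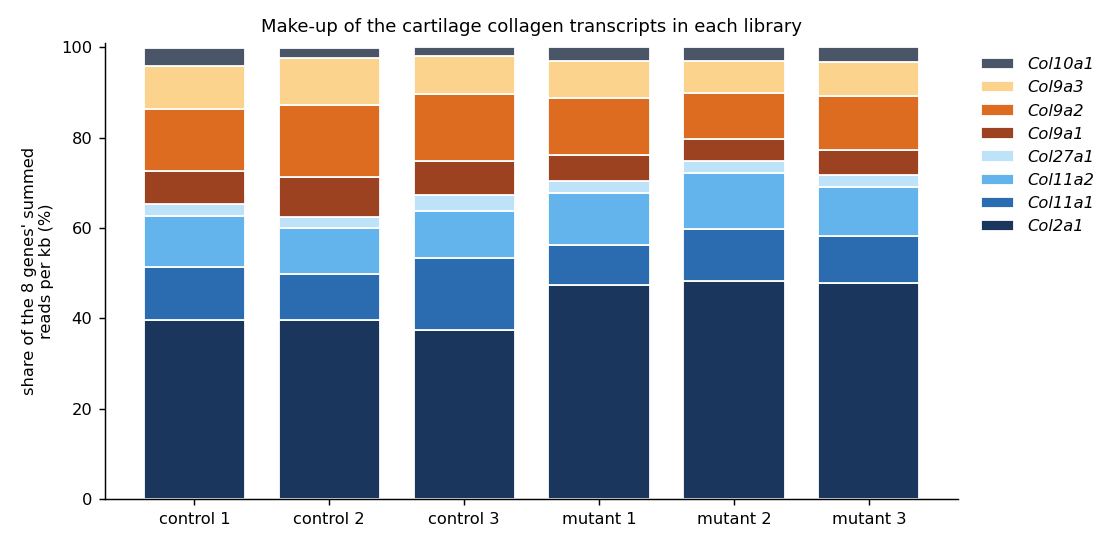
Stacked shares, in percent, of the 8 cartilage collagen genes in their summed reads per kb, one bar for each library. Col2a1 (bottom) takes 37.4% to 39.7% of each control bar and 47.4% to 48.3% of each mutant bar, and the orange and brown collagen IX segments are thinner in the mutants.

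Within collagen IX, whose 3 chains are needed in equal number, Col9a1 was also low relative to its partner Col9a2. The ratio was 0.549, 0.559 and 0.501 in control libraries against 0.453, 0.465 and 0.472 in mutant libraries, a log2 difference of -0.21 ± 0.051 (standard error, exact permutation p = 0.1), with the lowest control above the highest mutant. A ratio to Col9a2 lower in every mutant was found for 0.714% of all genes and a higher one for 1.37%, and the median gene had a log2 difference of 0.157. The within-group SD of ratios to Col9a2 had a median of 0.539 over all genes, against 0.063 for Col9a1. That median carries the spread of Col9a2 itself, so the small shares do not measure how rare the Col9a1 difference is. Col9a3 to Col9a2 was 0.693, 0.643 and 0.563 in control libraries against 0.660, 0.690 and 0.628 in mutant libraries, and these overlapped. Col9a1 made up 24.5%, 25.4% and 24.3% of the reads per kb of the 3 chains in control libraries against 21.5%, 21.6% and 22.5% in mutant libraries.

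Within collagen XI, Col11a2 to Col11a1 was 0.969, 0.983 and 0.642 in control libraries against 1.32, 1.09 and 1.05 in mutant libraries, a log2 difference of 0.44 ± 0.22 (standard error, exact permutation p = 0.1). It was higher in every mutant, and 0.24 without the third control. A ratio to Col11a1 was higher in every mutant for 6.62% of all genes and lower for 2.50%. Col2a1 to Acan was 5.43, 6.75 and 3.31 in control libraries against 7.25, 5.87 and 5.44 in mutant libraries, which overlapped (log2 difference 0.31 ± 0.33, standard error).

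**Figure D4:**
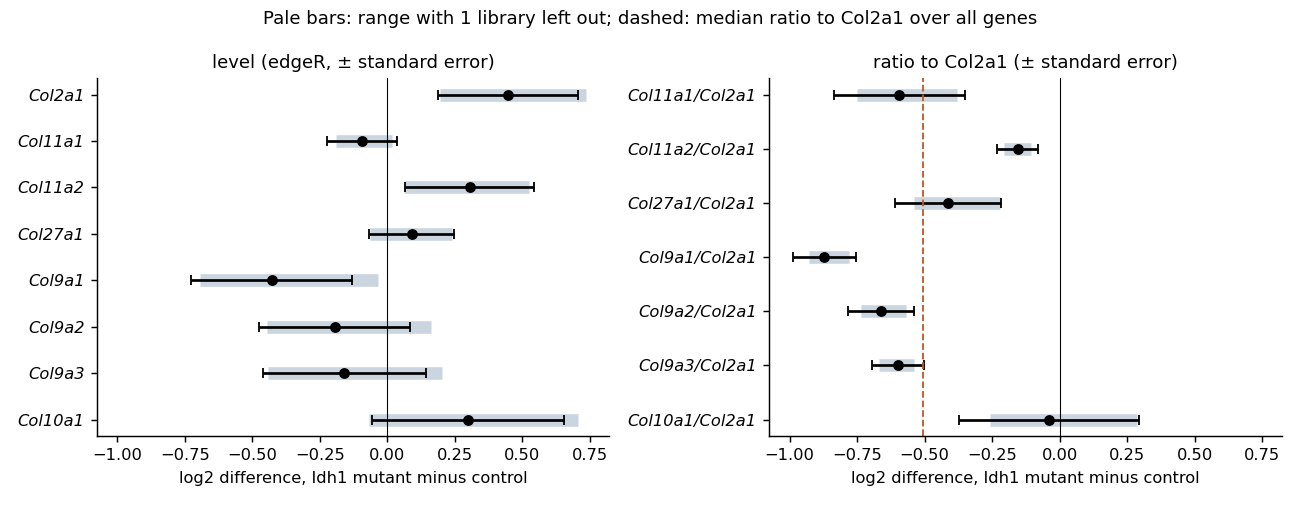
Log2 differences, Idh1 mutant minus control, of the level of each gene (left) and of its ratio to Col2a1 (right), as points with standard errors, pale bars for the range with 1 library left out, and a dashed line for the median ratio of all genes. The levels of Col11a1, Col27a1, Col9a2, Col9a3 and Col10a1 change sign when a library is left out, while the ratio of Col9a1 to Col2a1 stays between -0.93 and -0.78.

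The fourth question was how the genes varied together over the 6 libraries, as Pearson r of log2 CPM. Over the 28 pairs the median r was 0.81 (range 0.50 to 0.98), and 9 pairs reached 0.9. Of 10021 genes with a mean of at least 10 CPM, the share reaching 0.9 was 1.11% with Col2a1, 0.968% with Col11a1, 0.948% with Col11a2, 0.569% with Col27a1, 0.738% with Col9a1, 0.718% with Col9a2, 0.838% with Col9a3 and 0.818% with Col10a1. Col9a1, Col9a2 and Col9a3 had r of 0.95 to 0.98 with each other and 0.95 to 0.96 with Col11a1, and Col2a1 had r = 0.98 with Col11a2. The 8 pairs that join Col2a1 or Col11a2 to Col11a1 or a collagen IX chain had r of 0.53 to 0.82, with Col2a1 and Col9a1 lowest and Col11a2 and Col9a3 highest. Col27a1 stood with neither alone, at 0.86 with Col2a1 and with Col11a2 and 0.91 with Col9a2 and with Col9a3. It was lower with the rest of the second set, at 0.79 with Col9a1 and 0.80 with Col11a1.

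For Col9a1 with Col9a2, r was 0.98 (exact permutation p = 0.00278, adjusted p = 0.0311 over the 28 pairs) and Spearman's rho was 0.94 (exact permutation p = 0.0167, adjusted p = 0.0778). Without the 2 libraries farthest from the median r was 0.94. For Col2a1 with Col11a2, r was 0.98 (exact permutation p = 0.00556, adjusted p = 0.0311) and rho was 0.83 (exact permutation p = 0.0583, adjusted p = 0.136), and r was 0.60 without the third control and first mutant, so the relation rests on those libraries. Without the same libraries Col11a2 had r of 0.77 to 0.81 with the collagen IX chains. For Col2a1 with Col9a1, r = 0.53 pooled libraries that stood at different ratios by genotype. With each genotype's mean removed, r was 0.96 to 0.99 for Col2a1 with the collagen IX chains and 0.98 with Col11a1. The median over the 28 pairs was then 0.96, and 19 pairs reached 0.9. The share of all genes reaching 0.9 with genotype means removed was not taken, so the rise in pairs cannot be read as particular to these genes. Col10a1 had r of 0.90 with Col11a2, 0.86 with Col2a1 and 0.50 to 0.71 with the collagen IX genes. These rest on few libraries. Without the 2 libraries farthest from the median of the other gene, r of Col10a1 was 0.91, 0.93 and 0.96 with Col9a1, Col9a2 and Col9a3, -0.38 with Col11a2 and -0.67 with Col2a1.

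**Figure D5:**
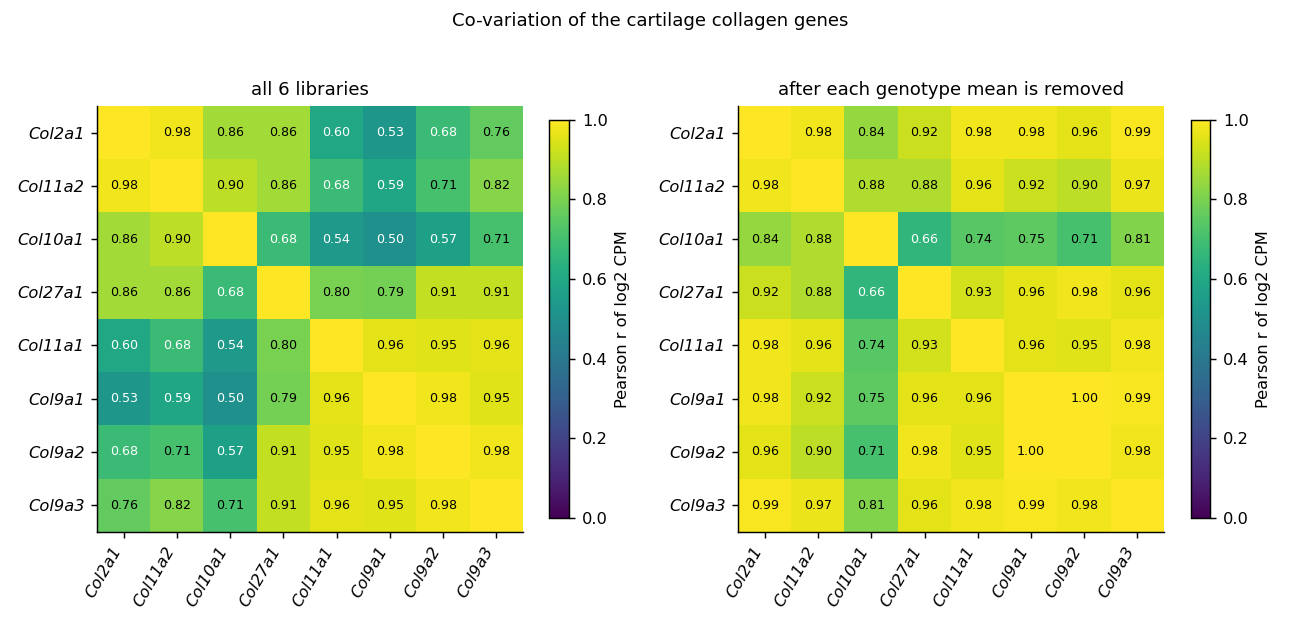
Pearson r of log2 CPM for each pair of the 8 genes over the 6 libraries (left) and after the mean of each genotype is removed (right), on a colour scale from 0 to 1. On the left Col2a1 is bright with Col11a2 and darker with collagen IX and Col11a1, and on the right r is 0.66 to 0.88 for the pairs of Col10a1 and 0.88 or more for all others.

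Outside the collagens, genes with a pattern much like that of Col2a1 included Zfp182 (r = 0.983), Fgfr3 (r = 0.982), Rab24 and Iqcc, of which Fgfr3 encodes the receptor that restrains chondrocyte proliferation. Those most like Col10a1 were Iqcb1 (r = 0.984), Taf11, 1110059E24Rik, Zfp101 and Vwa9. Comp, a matrix protein that binds collagens II and IX, was among the 5 genes nearest to each collagen IX chain, with r of 0.974, 0.986 and 0.982 for Col9a1, Col9a2 and Col9a3. Of the 3 SOX genes, Sox5 had r of 0.97, 0.96 and 0.95 with the same chains and 0.62 with Col2a1, and Sox9 had 0.93, 0.92 and 0.90 and 0.48. Sox6 had r of 0.56, 0.58 and 0.54 with the chains and 0.20 with Col2a1. For Sox5 with Col9a1, rho was 0.94 (exact permutation p = 0.00417 for r and 0.0167 for rho) and r was 0.99 without the 2 farthest libraries. Without them r of Sox9 with the chains was 0.76, 0.59 and 0.61. High r was not particular to collagen IX. With Col11a1, r was 0.97 for Sox9, 0.89 for Sox5 and 0.94 for Comp. Without the 2 farthest libraries, r with Col11a1 was 0.86 for Sox9 and 0.95 for Sox5. No pair of the 24 formed by the 3 SOX genes and the 8 genes had an r with an adjusted p under 0.05.

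The genes around the collagens were read from lists by role. None of the 15 regulators listed was called. Sox9 had a log2 difference of -0.20 ± 0.16 (edgeR adjusted p = 0.808). An unadjusted p under 0.05 was found for 1 regulator that was higher (Nkx3-2, 0.71 ± 0.22) and 3 that were lower. Runx3 (-0.33 ± 0.14) and Runx2 (-0.36 ± 0.16) were among the lower ones. Of 19 genes of collagen folding, modification and export tested, 0 were called and 3 were higher at an unadjusted p under 0.05. P4ha2 and P4ha1, catalytic subunits of the prolyl 4-hydroxylase that stabilises the triple helix, had log2 differences of 0.61 ± 0.11 (edgeR adjusted p = 0.0813) and 0.46 ± 0.10 (edgeR adjusted p = 0.141). P4ha1 had 380, 379 and 323 CPM in control libraries against 475, 524 and 492 CPM in mutant libraries, without overlap. P4ha2 had 194, 203 and 169 CPM and 266, 273 and 325 CPM, also without overlap.

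None of the 12 genes of collagen processing and cross-linking was called, and 1 (Adamts14, a procollagen peptidase, 0.26 ± 0.11) had an unadjusted p under 0.05. Of the 36 other collagen genes 0 were called, with an unadjusted p under 0.05 for 1 that was higher and 6 that were lower, and a median log2 difference of -0.09. Col8a1, a short-chain network collagen, had 139, 192 and 155 CPM in control libraries against 78.4, 104 and 71.0 CPM in mutant libraries, at a log2 difference of -0.94 ± 0.16 (edgeR adjusted p = 0.062).

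Of 10 cartilage markers 0 were called and 3 were lower at an unadjusted p under 0.05, with a median log2 difference of -0.19. Chad, chondroadherin, a cartilage protein that binds collagen II, had 39.6, 68.9 and 46.7 CPM in control libraries against 25.3, 30.6 and 20.4 CPM in mutant libraries, at -1.03 ± 0.21 (edgeR adjusted p = 0.135). Of 10 hypertrophic markers 0 were called and 5 had a positive log2 difference, with a median of 0.09. At an unadjusted p under 0.05 in edgeR, 1 was higher (Ibsp) and 1 was lower (Runx2, -0.36 ± 0.16). Ibsp, a matrix protein of mineralising tissue, had 974, 332 and 120 CPM in control libraries against 1142.3, 1475.3 and 952 CPM in mutant libraries, so that 1 control lay above 1 mutant (1.32 ± 0.57, edgeR adjusted p = 0.557). Of the other tissue markers, bone, skeletal muscle, endothelium and osteoclast had 0 genes called and overlapping summed CPM. The bone sum is mostly Col1a1 and Col1a2, so its overlap says little of the other bone markers. Of the 8 bone markers 7 had a positive log2 difference, with a median of 0.43. At an unadjusted p under 0.05 in edgeR, 1 was higher (Dmp1, 1.75 ± 0.69) and 0 were lower.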

How the data were processed

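Libraries were made from poly(A) RNA with a stranded kit and sequenced as single 50-base reads. The authors trimmed the reads with Trim Galore 0.6.4, mapped them to GRCm38 with STAR 2.6.1d and deposited 1 table of gene counts for each sample from featureCounts 1.6.4, which per the file headers ignored strand, so that reads overlapping both genes in the 234 exon bases Col9a3 shares with Tcfl5, or the 18 Col10a1 shares with Nt5dc1, were assigned to neither. The controls were litter mates and the study modelled litter beside genotype. The labels do not give the litter, so it was left out of the tests here, and nothing in them states that samples are separate animals beyond the replicate number, so p-values measure the spread between these samples.

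Counts were tested on the whole table with edgeR 4.0.16 in R 4.3.3 (glmQLFTest, genotype alone, TMM factors 0.964 to 1.02, filterByExpr with a minimum count of 10, Benjamini-Hochberg adjustment). DESeq2 1.42.0 and limma 3.58.1 were alternatives. Ratios used reads per kb of the deposited gene length and exact two-sided permutation tests over libraries, and correlations used log2 CPM with a prior count of 2 and all 720 pairings. The scripts were tested on simulated data. The 8 genes, the gene lists and the tests were chosen with earlier results of these data known. Named genes were the 8, up to 2 genes of lowest p in a list, the 5 of highest r with Col2a1 (1 of them is not reported here) and with Col10a1, and Acan, Sox9, Col1a1 and Xist. Comp, Sox5 and the genes near collagen IX were named after their values were seen.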

Additional observations from a re-analysis of the deposited data

How the results depend on the processing

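None of the 8 collagen genes was called under any setting tried. Their log2 differences kept their sign in all 72 results from 9 other settings (lowest adjusted p 0.275). With 1 library left out, 7 of 48 changed sign. The ranges were 0.19 to 0.74 for Col2a1, -0.191 to 0.0171 for Col11a1, 0.06 to 0.52 for Col11a2, -0.066 to 0.239 for Col27a1, -0.695 to -0.03 for Col9a1, -0.45 to 0.16 for Col9a2, -0.44 to 0.20 for Col9a3 and -0.0678 to 0.707 for Col10a1.

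The count of all genes called was 32 in edgeR, 193 in DESeq2, 259 without the filter, 19 in limma-voom and 6 with the Y-linked level as a covariate, and 3 to 17 with 1 library left out. Same-numbered samples of the groups did not deviate together (r of -0.127, 0.007 and -0.0953 over 16813 genes), so the numbers were not taken as pairs. With the replicate number as a block, edgeR called 3 genes and DESeq2 called 96. The cause of these differences was not tested.

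Over Acan in place of Col2a1, the log2 ratio differences were -0.56 for Col9a1, -0.35 for Col9a2, -0.29 for Col9a3, -0.28 for Col11a1, -0.10 for Col27a1 and 0.16 for Col11a2. Of these only that of Col11a1 was without overlap. Over Col11a2 they were -0.72, -0.51 and -0.44 for the collagen IX chains and -0.44 for Col11a1. With genotype means removed, 19 of 28 pairs reached r of 0.9, against 9, with no share over all genes taken for that setting. With 3 libraries for each genotype no permutation test of a ratio can pass 0.05.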
